A study of Mus musculus with 6 samples.

Results

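The genes described here encode the subunits of the mitochondrial respiratory chain and of ATP synthase. They were chosen by name from the count table: 86 nuclear genes (Nduf, Sdh, Uqcr with Cyc1, Cox and Atp5 symbols) and the 13 protein-coding genes of mitochondrial DNA, 99 of 51361 genes in all, with symbols ending in -ps left out. The name rule also took in Cox6c2, which GENCODE M21 lists as a processed pseudogene of Cox6c and which stayed between 0.493 and 2.05 CPM (counts scaled to the size of the library). Their messenger RNA was measured in 6 bulk RNA-seq libraries of regulatory T cells (Tregs), a class of lymphocytes that holds immune responses in check. All cells were sorted as CD4+CD25+Foxp3+ from 9-week-old male mice carrying Tg(Foxp3-DTR/EGFP)23.2Spar, a transgene that puts the diphtheria toxin receptor and green fluorescent protein under Foxp3 control, on the C57BL/6N background. The groups were Tregs from the brain 14 days after a 60 min transient occlusion of the middle cerebral artery (tMCAO, a model of ischaemic stroke), Tregs from the blood of tMCAO mice at the same time, and Tregs from the blood of sham-operated mice, with 2 libraries in each. Every group carried the transgene, and each library came from 500 to 1000 sorted cells. Whether separate animals gave the 2 libraries of each group is not stated in the labels, and the p-values below measure only the spread between libraries, which may be technical.

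The respiratory chain passes electrons from NADH through complex I, or from succinate through complex II, to ubiquinone, then through complex III and cytochrome c to complex IV, where oxygen is reduced. Complexes I, III and IV pump protons across the inner mitochondrial membrane, and ATP synthase (complex V) makes ATP as the protons flow back. Complex II is encoded by nuclear genes alone, whereas the other complexes join nuclear subunits to a small core that mitochondrial DNA encodes, so that both genomes must be expressed for a complex to form. Tregs are known for leaning on oxidative phosphorylation more than activated conventional T cells do.

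Totals ranged from 14348179 to 24460894 counts per library, and 95 of the 99 genes passed the filter on low counts (82 nuclear, 13 mitochondrially encoded). The nuclear genes that did not were Cox4i2, Cox7b2, Cox8b and Cox8c. The libraries differed in the RNA of T cells and of other cell types. Foxp3, which the sort used, stood at 0.726 and 19.6 CPM in the tMCAO brain libraries, 0.538 and 5.18 CPM in those from tMCAO blood, and 50.1 and 60.7 CPM in those from sham blood. A list of 17 T cell genes, all with counts in every library, took 0.03% and 0.155% of the counts of the tMCAO brain libraries, 0.069% and 0.456% of those from tMCAO blood, and 0.916% and 0.886% of those from sham blood. The shares of 15 microglia genes were 2.43% and 2.04% in the tMCAO brain libraries, 0.517% and 0.319% in those from tMCAO blood, and 0.0343% and 0.0579% in those from sham blood. Those of 14 monocyte and macrophage genes were 3.45% and 1.48% in the tMCAO brain libraries, 2.96% and 1.23% in those from tMCAO blood, and 0.728% and 0.586% in those from sham blood. The 10 red cell genes summed to 0.00112% and 0.00272% in the tMCAO brain libraries, where 5 and 8 of them were at 0, to 0.109% and 3.85% in those from tMCAO blood, and to 15.7% and 17.3% in those from sham blood. A list of 6 Treg genes summed to 0.0109% and 0.0573% in the tMCAO brain libraries, to 0.0158% and 0.103% in those from tMCAO blood, and to 0.191% and 0.19% in those from sham blood. Neutrophil genes (11) summed to 0.178% and 0.0254% in the tMCAO brain libraries, to 0.0314% and 0.792% in those from tMCAO blood, and to 0.00235% and 0.00233% in those from sham blood. Platelet genes ranged over libraries from 0.00657% to 0.185%, B cell genes from 0.0153% to 0.153%, and CD8 and natural killer cell genes from 0.00653% to 0.108%. Library 1 of both tMCAO groups had the least T cell and Treg RNA of its group, with only 12 counts of Foxp3 in tMCAO brain and 10 in tMCAO blood, so the label Treg is not borne out by the RNA of these 2 libraries. In all 4 tMCAO libraries the monocyte and macrophage list exceeded the T cell list. The group names below are those of the labels, and log2 differences are also given without library 1 of both tMCAO groups. That fit leaves 1 library in each tMCAO group, so its spread comes from the 2 sham blood libraries alone. Its calls are therefore not given. In bulk RNA, fewer cells of a type and less RNA per cell cannot be told apart, and the part that the mix of cell types has in the differences below was not tested.

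Nuclear respiratory chain genes took the largest share of counts in tMCAO blood. They made up 1.24% and 1.39% of the counts of the tMCAO brain libraries, 2.92% and 2.76% of those from tMCAO blood, and 1.70% and 1.61% of those from sham blood. The tMCAO blood libraries stood above all 4 others and the tMCAO brain libraries below all others. The 13 mitochondrially encoded genes took 0.98% and 2.37% of the counts of the tMCAO brain libraries, 1.89% and 1.94% of those from tMCAO blood, and 1.78% and 1.55% of those from sham blood. Here the brain libraries lay on either side of all blood libraries. Counts of mitochondrially encoded over nuclear genes were thus 0.789 and 1.70 in the tMCAO brain libraries, 0.648 and 0.704 in those from tMCAO blood, and 1.05 and 0.964 in those from sham blood. That ratio does not depend on the scaling between libraries, and from summed counts it was lower in both tMCAO blood libraries than in the other 4. With the mean of log2 counts per gene in place of the summed counts it was 0.98 and 2.27 in the tMCAO brain libraries, 1.06 and 1.23 in those from tMCAO blood, and 1.27 and 1.14 in those from sham blood, and tMCAO blood was then no longer set apart. With the mitochondrial ribosomal RNAs added it was 1.28 and 2.26 in the tMCAO brain libraries, 1.18 and 1.65 in those from tMCAO blood, and 1.86 and 1.54 in those from sham blood, and the groups overlapped. The 95% Wilson intervals of the summed shares reached at most 0.442% of the share to either side and cover counting error only. All these shares are of raw totals, of which red cell genes took 15.7% and 17.3% in sham blood, which lowers every other share there. In tMCAO blood they took 0.109% and 3.85%, and in tMCAO brain 0.00112% and 0.00272%. Shares without the red cell genes were not computed.

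**Figure D1:**
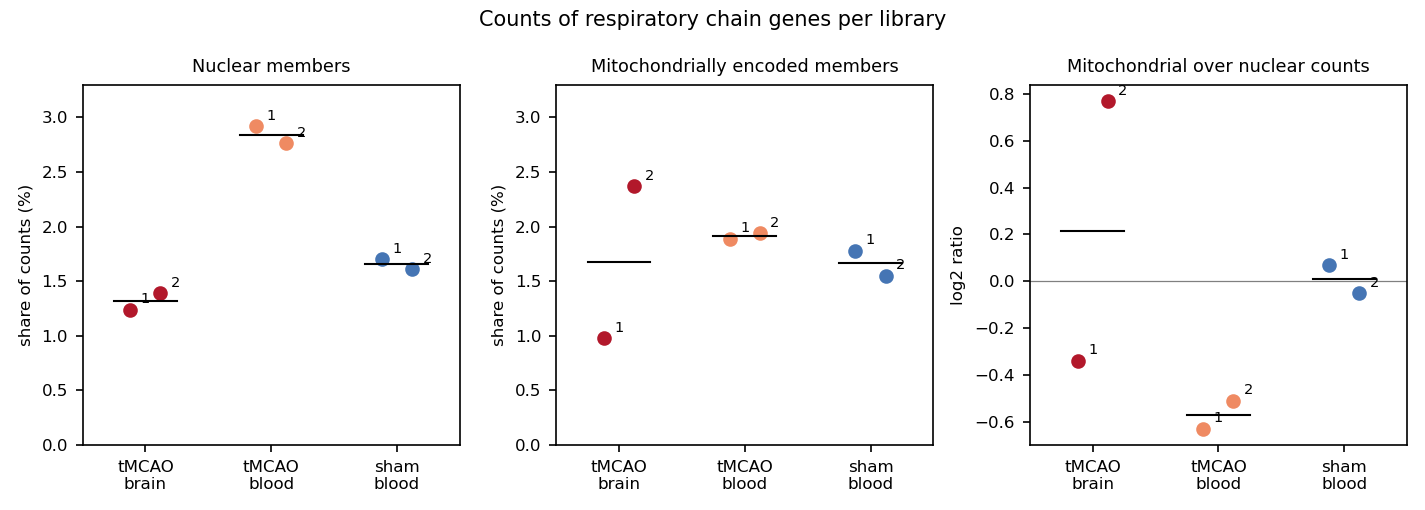
Share of each library's counts from the 86 nuclear respiratory chain genes (left) and the 13 mitochondrially encoded ones (middle), and the log2 ratio of the summed counts (right), with a point per library, its number beside it, and a line at the mean of the 2 libraries. The nuclear share is highest in tMCAO blood (2.92% and 2.76%), and the mitochondrially encoded share separates the 2 tMCAO brain libraries (0.98% and 2.37%).

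Between tMCAO brain and tMCAO blood, 7 of 82 tested nuclear genes fell in tMCAO brain and 0 rose (edgeR quasi-likelihood test, adjusted p under 0.05). Over all 16657 genes tested, 4.9% were called in this comparison, 1.37% as lower and 3.53% as higher, so the 8.54% of nuclear genes called lower lies above the background for that direction. The fallen genes were 4 of complex V (Atp5e, Atp5j2, Atp5k and Atp5l) and 3 with complex I names (Ndufa4, Ndufa11 and Ndufb1). Of the 82, 68 had a negative log2 difference, and for 57 both brain libraries lay below both tMCAO blood libraries (69.5%, against 25.9% of all genes). The median log2 difference was -1.03 for the nuclear genes and 0.06 for all genes. Without tMCAO brain library 1 and tMCAO blood library 1, which leaves 1 library in each group, the nuclear median was -0.87 and that of all genes 0.08. However, none of the 7 calls held when any 1 library was left out (edgeR adjusted p = 0.0556 to 0.157). By DESeq2, 48 nuclear genes were called lower and 2 higher, beside 8.22% lower and 12.6% higher over all genes.

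Atp5k, which encodes subunit e of ATP synthase, a small membrane protein that helps the enzyme to pair up, stood at 73.3 and 74.4 CPM in the tMCAO brain libraries, against 276 and 226 CPM in those from tMCAO blood. Both brain libraries lay far below both blood libraries and close to each other. The log2 difference was -1.77 ± 0.27 (SE, edgeR adjusted p = 0.0289). The gene lies at chr5:108433244-108434448 on the minus strand (GRCm38). Atp5e, for the epsilon subunit of the catalytic head, had 186 and 163 CPM in the tMCAO brain libraries and 609 and 475 CPM in those from tMCAO blood (log2 difference -1.63 ± 0.30, edgeR adjusted p = 0.0394). Atp5l, for the membrane subunit g, had 30.2 and 29.5 CPM in the tMCAO brain libraries and 86.2 and 70.4 CPM in those from tMCAO blood (-1.39 ± 0.25, edgeR adjusted p = 0.0388). Atp5j2, for the membrane subunit f, had 228 and 195 CPM in the tMCAO brain libraries and 606 and 527 CPM in those from tMCAO blood (-1.42 ± 0.29, edgeR adjusted p = 0.0488). In each of these the groups did not overlap, and the brain libraries differed from each other by less than the groups did.

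Ndufb1, an accessory subunit of complex I, showed the largest negative log2 difference among the nuclear genes, at -1.82 ± 0.31 (edgeR adjusted p = 0.035). Its levels were 181 and 181 CPM in the tMCAO brain libraries and 750 and 526 CPM in those from tMCAO blood. GENCODE M21 lists it at chr12:101968090-101977068, minus strand, under a pseudogene symbol and as a non-coding gene, and 12.7% of its exon bases overlap Cpsf2 on the other strand. Ndufa11, a membrane subunit of complex I whose exon bases overlap Vmac over 6.4%, stood at 75.1 and 82.2 CPM in the tMCAO brain libraries and 237 and 178 CPM in those from tMCAO blood (-1.40 ± 0.27, edgeR adjusted p = 0.0453). Ndufa4, named as a complex I subunit and since assigned to complex IV, stood at 199 and 254 CPM in the tMCAO brain libraries and 631 and 676 CPM in those from tMCAO blood (-1.53 ± 0.30, edgeR adjusted p = 0.045). Again no brain library reached the level of a tMCAO blood library.

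In tMCAO blood against sham blood, which shares the tMCAO blood libraries with the comparison above, 8 of 82 nuclear genes rose and 0 fell (edgeR). Over all genes 7.48% were called, 4.33% as higher and 3.15% as lower, beside 9.76% of the nuclear genes called higher. The risen genes were 4 of complex V (Atp5k, Atp5l, Atp5md and Atp5mpl), 2 of complex I (Ndufb1 and Ndufc1), Uqcr10 of complex III and Cox7c of complex IV. Of the 82, 65 had a positive log2 difference, 58 stood higher in both tMCAO blood libraries than in both sham libraries (70.7%, against 33.6% of all genes), and 9 stood lower in both. The nuclear median was 0.83, against 0.11 for all genes. Without library 1 of both tMCAO groups the nuclear median was 0.63 and that of all genes 0.05. All 8 calls were lost without tMCAO blood library 1, sham library 1 or sham library 2, and the fits without tMCAO brain library 1 or 2 called 3 nuclear genes each, while the fit without tMCAO blood library 2 called 13, all higher. By DESeq2, 42 nuclear genes were called higher and 2 lower, beside 12.4% higher and 10.4% lower over all genes.

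Ndufc1, a small membrane subunit of complex I at chr3:51404677-51408988, had 407 and 230 CPM in tMCAO blood, against 83.3 and 71.9 CPM in sham blood (log2 difference 2.04 ± 0.36, edgeR adjusted p = 0.036). Ndufb1 had 750 and 526 CPM in tMCAO blood, against 163 and 151 CPM in sham blood (2.02 ± 0.32, edgeR adjusted p = 0.0316). The tMCAO blood libraries differed from each other in both genes, library 1 being the higher, and both lay above the sham libraries. Atp5k stood at 276 and 226 CPM in tMCAO blood, against 84.0 and 73.7 CPM in sham blood (1.67 ± 0.27, edgeR adjusted p = 0.0321). Atp5mpl and Atp5md encode very small proteins of the membrane part of ATP synthase. Atp5mpl had 639 and 404 CPM in tMCAO blood, against 168 and 164 CPM in sham blood (1.65 ± 0.33, edgeR adjusted p = 0.0418). Atp5md had 554 and 403 CPM in tMCAO blood, against 169 and 158 CPM in sham blood (1.55 ± 0.31, edgeR adjusted p = 0.0422). Atp5l had 86.2 and 70.4 CPM in tMCAO blood, against 36.8 and 32.6 CPM in sham blood (1.17 ± 0.25, edgeR adjusted p = 0.0469). In all of these the sham libraries agreed more closely with each other than the tMCAO blood libraries did.

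Cox7c, a small subunit of cytochrome c oxidase, stood at 488 and 335 CPM in tMCAO blood, against 136 and 133 CPM in sham blood (1.61 ± 0.33, edgeR adjusted p = 0.0425). Of its 75-base stretches, 19.6% also occur in annotated pseudogenes, so its count is uncertain. Uqcr10, a small subunit of complex III, stood at 420 and 372 CPM in tMCAO blood, against 179 and 160 CPM in sham blood (1.22 ± 0.27, edgeR adjusted p = 0.0497). It is the call nearest to the threshold among the 8.

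**Figure D2:**
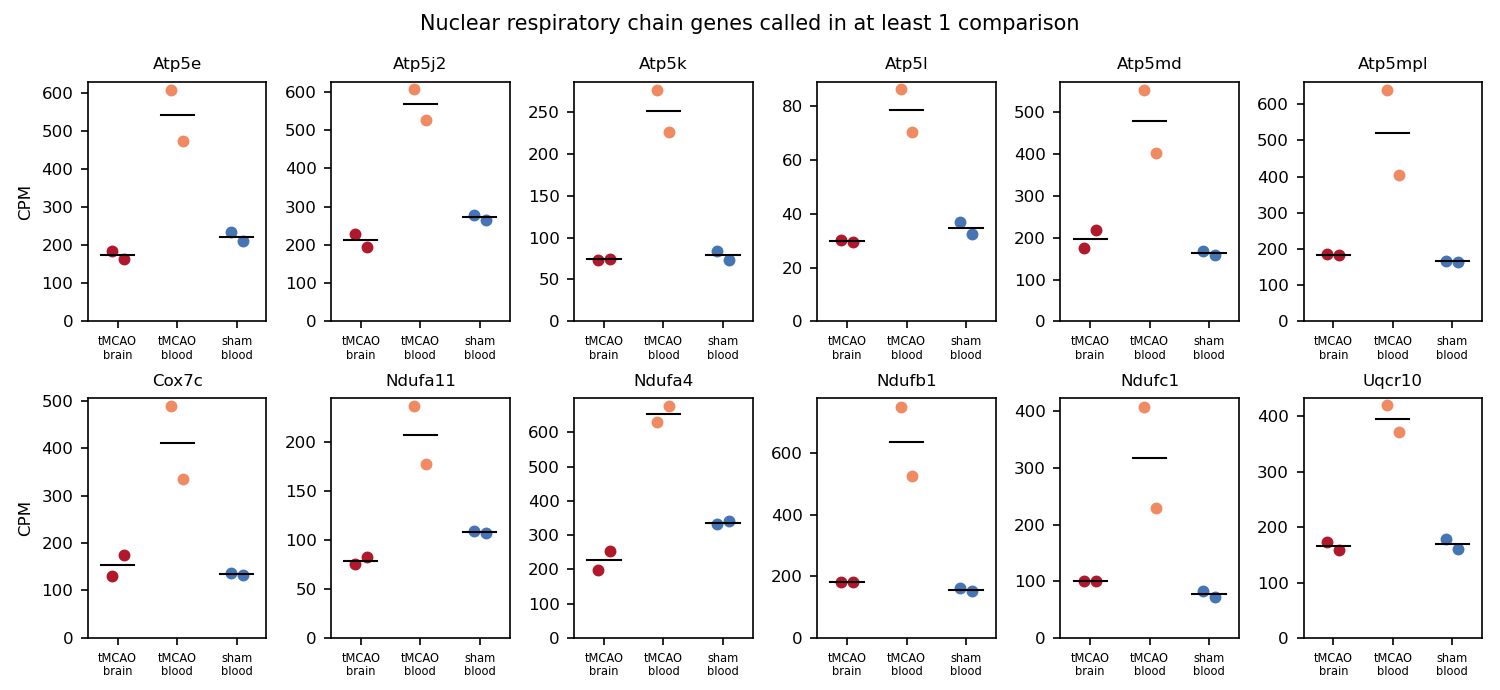
CPM of the 12 nuclear genes called in at least 1 comparison, with a point per library, a line at the mean of the 2 libraries and an axis from 0 in each panel. In every panel both tMCAO blood libraries stand above the tMCAO brain libraries and the sham blood libraries, as for Atp5k (73.3 and 74.4 CPM in the tMCAO brain libraries, 276 and 226 CPM in those from tMCAO blood, 84.0 and 73.7 CPM in those from sham blood).

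In tMCAO brain against sham blood, 0 nuclear genes were called by edgeR, beside 10.6% of all genes (8.01% higher and 2.62% lower), and 2 had an unadjusted p under 0.05. DESeq2 called 1 higher and 4 lower, beside 15.6% higher and 8.43% lower over all genes. Without library 1 of both tMCAO groups edgeR called 2 of 83 higher and 2 lower, beside 17.7% and 9.68% over all genes. The nuclear median was -0.17 and that of all genes 0.09. This comparison shares its libraries with the other 2. Both tMCAO brain libraries lay below both sham libraries for 38 of the 82 genes (46.3%, against 29.7% of all genes). They lay above them for 15 (18.3%, against 34.9% of all genes). For Atp5k, with 73.3 and 74.4 CPM in tMCAO brain and 84.0 and 73.7 CPM in sham blood, the groups overlapped.

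A single gene stood apart. Cox6a2 encodes the heart and skeletal muscle form of a complex IV subunit, at chr7:128205435-128206387, and stood at 28.3 and 35.4 CPM in the tMCAO brain libraries, 0.377 and 0.648 CPM in those from tMCAO blood, and 1.54 and 0 CPM in those from sham blood. Both brain libraries were far above all 4 blood libraries. Its log2 difference was 5.94 ± 1.35 against tMCAO blood and 5.34 ± 1.32 against sham blood, neither of which passed in edgeR (adjusted p = 0.0603 and 0.0536). It passed in both by DESeq2 (adjusted p = 1.64e-05 and 9.2e-05) and by limma-voom (0.028 and 0.031). Without sham blood library 1, which left sham blood with a count of 0, the log2 difference against sham blood was 12.17, which is no measured fold. The gene on the other strand that overlaps 10.3% of its exon bases, Itgad, reached only 0 and 0.858 CPM in the tMCAO brain libraries, 2.37 and 1.94 CPM in those from tMCAO blood, and 0.578 and 0 CPM in those from sham blood. The microglia list was also highest in the brain libraries (2.43% and 2.04% of counts), and its part in the Cox6a2 level was not tested. Cox6a1, the form found in most tissues, stood at 368 and 279 CPM in the tMCAO brain libraries, 765 and 548 CPM in those from tMCAO blood, and 382 and 385 CPM in those from sham blood.

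The other genes with tissue-specific copies were led by their general forms. Cox4i1 had 643 and 553 CPM in the tMCAO brain libraries, 988 and 765 CPM in those from tMCAO blood, and 557 and 505 CPM in those from sham blood, while Cox4i2, the lung form, reached at most 0.242 CPM in any library. Cox7a2 had 233 and 201 CPM in the tMCAO brain libraries, 678 and 470 CPM in those from tMCAO blood, and 230 and 203 CPM in those from sham blood. The muscle form Cox7a1 stood at 2.48 and 2.94 CPM in the tMCAO brain libraries, 13.5 and 1.45 CPM in those from tMCAO blood, and 1.03 and 0.985 CPM in those from sham blood, where tMCAO blood library 1 alone was high. Cox6b1 had 419 and 260 CPM in the tMCAO brain libraries, 1152 and 710 CPM in those from tMCAO blood, and 397 and 354 CPM in those from sham blood. The testis form Cox6b2 had 2.06 and 11.8 CPM in the tMCAO brain libraries, 2.26 and 3.14 CPM in those from tMCAO blood, and 7.19 and 10.1 CPM in those from sham blood, so the brain libraries spanned the others. Cox8a had 494 and 377 CPM in the tMCAO brain libraries, 726 and 608 CPM in those from tMCAO blood, and 362 and 347 CPM in those from sham blood. Cox8b, its muscle form, had 12.3 CPM in tMCAO brain library 2 and a count of 0 in the other 5 libraries, which allows up to 3 counts in each, and Cox8c, its testis form, had 0 in all 6. Cox7a2l, which helps complexes III and IV to assemble into supercomplexes, lacked the high tMCAO blood level, with 108 and 131 CPM in the tMCAO brain libraries, 141 and 184 CPM in those from tMCAO blood, and 172 and 168 CPM in those from sham blood.

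Split by complex, the nuclear genes of complexes I, III, IV and V had negative medians in tMCAO brain against tMCAO blood and positive ones in tMCAO blood against sham blood, and those of complex II did not. Within complex I the accessory subunits and the core subunits, which carry the flavin and iron-sulphur centres, differed in their medians. The 30 accessory subunits had a median log2 difference of -1.09 in tMCAO brain against tMCAO blood and 0.90 in tMCAO blood against sham blood, and 28 of them (93.3%) lay wholly on that side in each, beside 25.9% of all genes lower in the first comparison and 33.6% higher in the second. The other direction held 1 accessory gene in each (3.3%, beside 31.4% of all genes higher in the first comparison and 30.4% lower in the second). The 30 include Ndufa4. Without it the medians of the other 29 were -1.05 and 0.90, with 27 wholly on that side in each. The 7 nuclear core subunits had medians of -0.12 and 0.05, with 1 gene lower and 1 higher without overlap in each comparison (14.3% each, beside 25.9% lower and 31.4% higher of all genes in the first and 30.4% lower and 33.6% higher in the second), and none was called. Ndufs1, which holds the largest set of iron-sulphur centres, was at 62.1 and 65.1 CPM in the tMCAO brain libraries, 65.9 and 52.5 CPM in those from tMCAO blood, and 60.8 and 78.5 CPM in those from sham blood. Ndufv1, the subunit that binds NADH, was at 84.9 and 79.6 CPM in the tMCAO brain libraries, 68.2 and 54.0 CPM in those from tMCAO blood, and 87.7 and 105 CPM in those from sham blood. For this gene tMCAO blood was the lowest group. Per kilobase of exon the most abundant complex I messages were the accessory Ndufa1 (mean of 883 CPM per kilobase over the 6 libraries) and Ndufa2 (495).

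The 4 genes of complex II, succinate dehydrogenase, had median log2 differences of 0.12, -0.03 and 0.14 in the 3 comparisons and no call. Sdhb, its iron-sulphur subunit, had 344 and 256 CPM in the tMCAO brain libraries, 404 and 312 CPM in those from tMCAO blood, and 352 and 325 CPM in those from sham blood, and Sdhd, a membrane anchor, had 238 and 187 CPM in the tMCAO brain libraries, 303 and 158 CPM in those from tMCAO blood, and 194 and 204 CPM in those from sham blood. These were the most abundant of the 4 per kilobase (148 and 174 CPM per kilobase), and the libraries of the 3 groups overlapped in both.

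In complex III the small subunits and the large core proteins went opposite ways. Uqcr11, a small subunit and the most abundant per kilobase (536 CPM per kilobase, with Uqcr10 next at 417), stood at 248 and 194 CPM in the tMCAO brain libraries, 676 and 493 CPM in those from tMCAO blood, and 241 and 210 CPM in those from sham blood. Uqcrc1 and Uqcrc2 encode the core proteins that face the matrix. Uqcrc1 had 306 and 272 CPM in the tMCAO brain libraries, 218 and 125 CPM in those from tMCAO blood, and 354 and 410 CPM in those from sham blood. Uqcrc2, whose exon bases overlap Pdzd9 over 19.7%, had 100 and 107 CPM in the tMCAO brain libraries, 68.9 and 45.5 CPM in those from tMCAO blood, and 127 and 130 CPM in those from sham blood. For both, tMCAO blood was the lowest group without overlap, but no difference passed in edgeR (Uqcrc2 log2 difference 0.86 ± 0.29 in tMCAO brain against tMCAO blood, adjusted p = 0.121, and -1.17 ± 0.29 in tMCAO blood against sham blood, adjusted p = 0.061). The electron-carrying subunits Cyc1 and Uqcrfs1 had log2 differences of 0.17 and -0.45 in tMCAO brain against tMCAO blood and -0.09 and 0.26 in tMCAO blood against sham blood. Complex IV had medians of -1.19 and 1.18 in these comparisons, and its most abundant nuclear messages per kilobase were Cox8a (785 CPM per kilobase) and Cox6b1 (775).

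ATP synthase showed a similar division. Its 5 head subunits had medians of 0.00 in tMCAO brain against tMCAO blood and -0.37 in tMCAO blood against sham blood, the peripheral stalk (4 genes) -1.18 and 0.71, the membrane c ring (3 genes) -0.96 and 0.74, and the 5 supernumerary membrane subunits -1.42 and 1.55. Of the 5 supernumerary genes, 3 were called lower in the first comparison and 4 higher in the second, beside 1.37% and 4.33% of all genes. Atp5b, the catalytic beta subunit, had 946 and 920 CPM in the tMCAO brain libraries, 922 and 656 CPM in those from tMCAO blood, and 1140 and 1406 CPM in those from sham blood, where both sham libraries were the highest. The head's smallest subunit, Atp5e, was the only head gene called. The c ring is made of 1 protein that comes from 3 genes. Atp5g3 had 244 and 203 CPM in the tMCAO brain libraries, 666 and 495 CPM in those from tMCAO blood, and 342 and 352 CPM in those from sham blood. Atp5g1 had 139 and 162 CPM in the tMCAO brain libraries, 382 and 204 CPM in those from tMCAO blood, and 161 and 154 CPM in those from sham blood. Atp5g2 had 56.0 and 44.3 CPM in the tMCAO brain libraries, 64.3 and 52.5 CPM in those from tMCAO blood, and 55.7 and 53.2 CPM in those from sham blood. Of the 3 genes Atp5g2 showed the smallest differences. Atp5h, a stalk subunit, and Atp5mpl were the most abundant per kilobase (262 and 239 CPM per kilobase).

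**Figure D3:**
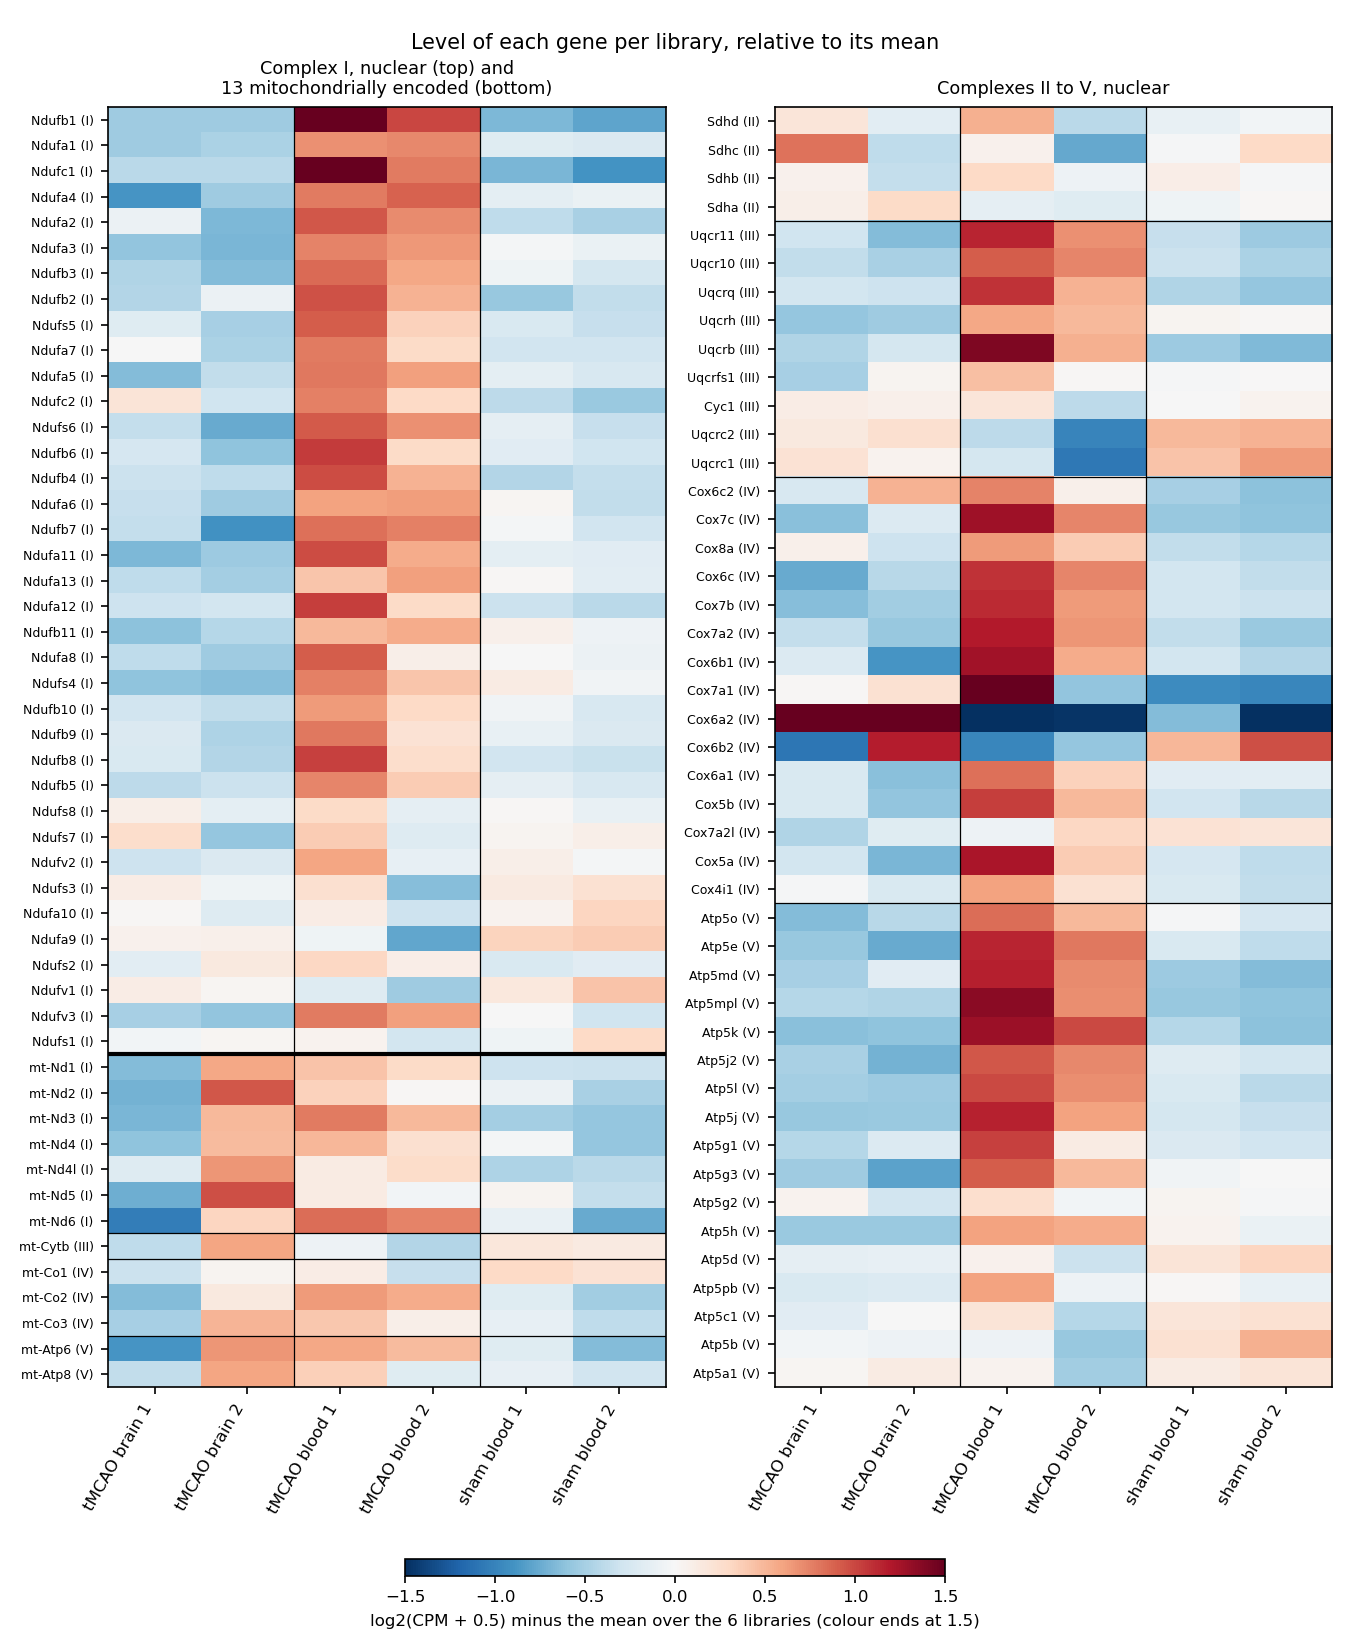
Level of each tested gene in each library, as log2(CPM + 0.5) minus its mean over the 6 libraries, with nuclear genes ordered within each complex from short to long coding sequence (genes with no coding length first) and the mitochondrially encoded genes at the lower left. The tMCAO blood columns are high for most short nuclear genes and not for long ones such as Uqcrc1, Uqcrc2, Atp5b and Ndufv1, and the mitochondrially encoded genes are lower in tMCAO brain library 1 than in library 2.

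The division of the subunits also went with coding length. Length and role in the complex were not tested apart. Over the 79 tested nuclear genes with an annotated coding length, the log2 difference of tMCAO brain against tMCAO blood correlated with coding length (Spearman rho 0.73), and that of tMCAO blood against sham blood did so in the opposite direction (rho -0.77), while for tMCAO brain against sham blood rho was -0.19. Over 12381 other protein-coding genes rho was 0.03, 0.01 and 0.05. Their lengths were unlike those of the members, with 9012 of them over 900 coding bases, against 12 of the 79. The Pearson correlation with log2 coding length over the nuclear genes was 0.44, -0.7 and -0.14. These are correlations across genes measured in the same libraries, the first 2 comparisons share the tMCAO blood libraries, and genes are not independent replicates. The 22 nuclear genes with at most 300 coding bases had medians of -1.41 in tMCAO brain against tMCAO blood and 1.27 in tMCAO blood against sham blood. Those over 300 and up to 450 bases (25 genes) had -1.13 and 0.95, and those over 450 and up to 900 bases (20 genes) had -0.53 and 0.31. The 12 genes over 900 bases had 0.26 and -0.33, with only few genes in this class.

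Other short genes moved the same way by less. Among 237 other protein-coding genes of at most 300 coding bases the medians were -0.61 in tMCAO brain against tMCAO blood and 0.50 in tMCAO blood against sham blood, and among 587 over 300 and up to 450 bases they were -0.45 and 0.36. The 9012 over 900 bases had 0.23 and 0.00. In tMCAO brain against sham blood no length class of the nuclear members had a median outside -0.26 to -0.03. The medians of the members up to 450 bases were -1.17 and 0.93 without library 1 of both tMCAO groups. Between the 2 tMCAO blood libraries the median log2 difference of library 2 from library 1 was negative in every nuclear length class. From the shortest class to the longest the medians were -0.35, -0.43, -0.5 and -0.46. The 1 gene over 900 bases with a large negative difference, Ndufv3, is in that class through its longer annotated isoform (1404 coding bases). It had 113 and 106 CPM in the tMCAO brain libraries, 275 and 245 CPM in those from tMCAO blood, and 160 and 130 CPM in those from sham blood.

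**Figure D4:**
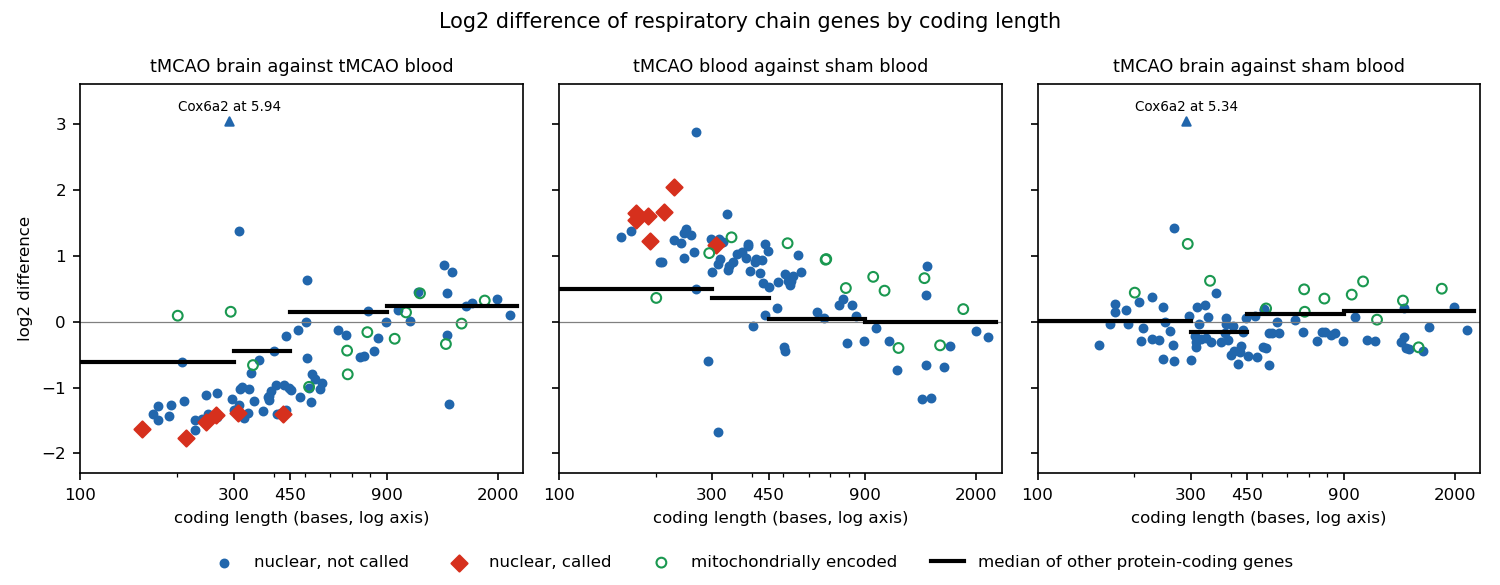
Log2 difference of each respiratory chain gene (vertical axis) against its coding length in bases (horizontal, log axis) in the 3 comparisons, with called nuclear genes as diamonds and black lines at the median of the other protein-coding genes in each length class. Short nuclear genes lie low in tMCAO brain against tMCAO blood (median -1.41 up to 300 bases) and high in tMCAO blood against sham blood (1.27), and Cox6a2 is drawn as a triangle below its true value of 5.94 or 5.34.

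None of the 13 mitochondrially encoded genes was called in any comparison by edgeR, DESeq2 or limma-voom with all 6 libraries and the main filter on low counts. At an unadjusted p under 0.05 edgeR gave 0 in tMCAO brain against tMCAO blood, 1 in tMCAO blood against sham blood and 0 in tMCAO brain against sham blood. Their median log2 differences were -0.16, 0.66 and 0.41, over ranges of -0.99 (mt-Nd6) to 0.43 (mt-Cytb), -0.40 (mt-Cytb) to 1.28 (mt-Nd3), and -0.39 (mt-Co1) to 1.18 (mt-Nd4l). In tMCAO blood against sham blood 9 of the 13 stood higher without overlap (69.2%, against 33.6% of all genes) and 2 stood lower (15.4%, against 30.4%). The 2 comparisons with tMCAO brain rested on which brain library was used, since all 13 genes were higher in brain library 2 than in library 1 (median log2 difference 1.07, range 0.36 to 1.71), while the 82 nuclear genes had a median of -0.04. Without brain library 1 the medians were 0.22 against tMCAO blood and 0.86 against sham blood, and without brain library 2 they were -0.89 and -0.34. Brain library 2 also held more T cell RNA than library 1 (0.155% and 0.03% of counts). B cell genes (0.153% and 0.0196%) and CD8 and natural killer cell genes (0.108% and 0.00653%) were likewise higher in library 2. Monocyte and macrophage genes (1.48% and 3.45%) and neutrophil genes (0.0254% and 0.178%) were lower in library 2. The part of this mix in the difference was not tested. Without library 1 of both tMCAO groups, which leaves 1 library in each, the medians of the 13 genes were 0.31, 0.57 and 0.85 in the 3 comparisons.

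Mt-Nd1, a complex I subunit at which ubiquinone binds, stood at 2230 and 5249 CPM in the tMCAO brain libraries, 4710 and 4276 CPM in those from tMCAO blood, and 2826 and 2799 CPM in those from sham blood. Mt-Nd2, a proton-pumping subunit, had 941 and 2922 CPM in the tMCAO brain libraries, 1946 and 1562 CPM in those from tMCAO blood, and 1443 and 1095 CPM in those from sham blood. In both genes the brain libraries spanned all the others. Mt-Nd4, another pumping subunit, had 1110 and 2332 CPM in the tMCAO brain libraries, 2376 and 1982 CPM in those from tMCAO blood, and 1641 and 1124 CPM in those from sham blood. Mt-Nd5, at the far end of the membrane arm, had 736 and 2403 CPM in the tMCAO brain libraries, 1335 and 1187 CPM in those from tMCAO blood, and 1258 and 957 CPM in those from sham blood. Brain library 1 was the lowest of all 6 in both genes. Mt-Nd6 is the 1 protein-coding gene on the other strand of the mitochondrial genome. It had 166 and 427 CPM in the tMCAO brain libraries, 608 and 571 CPM in those from tMCAO blood, and 315 and 202 CPM in those from sham blood, so the tMCAO blood libraries were the highest, and neither difference passed in edgeR (log2 difference -0.99 ± 0.50, adjusted p = 0.254, and 1.19 ± 0.51, adjusted p = 0.179).

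Mt-Cytb, the cytochrome b of complex III, went the other way. It stood at 2726 and 5340 CPM in the tMCAO brain libraries, 3373 and 2617 CPM in those from tMCAO blood, and 4012 and 3903 CPM in those from sham blood. Mt-Co1, the catalytic subunit of complex IV, stood at 3735 and 4784 CPM in the tMCAO brain libraries, 5014 and 3670 CPM in those from tMCAO blood, and 5726 and 5413 CPM in those from sham blood. For these 2 genes the sham libraries lay above the tMCAO blood libraries, unlike the other 11. Mt-Co2, mt-Co3, mt-Atp6, mt-Atp8, mt-Nd3 and mt-Nd4l had far fewer counts. Mt-Co2, which takes electrons from cytochrome c, had 38.5 and 67.7 CPM in the tMCAO brain libraries, 95.4 and 89.8 CPM in those from tMCAO blood, and 53.7 and 42.3 CPM in those from sham blood. Mt-Co3 had 58.2 and 117 CPM in the tMCAO brain libraries, 109 and 87.4 CPM in those from tMCAO blood, and 75.1 and 62.7 CPM in those from sham blood. The proton channel subunit mt-Atp6 had 21.7 and 64.5 CPM in the tMCAO brain libraries, 60.9 and 56.4 CPM in those from tMCAO blood, and 35.6 and 25.7 CPM in those from sham blood. Mt-Atp8, mt-Nd3 and mt-Nd4l were at most 10.9 CPM in any library.

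Low counts went with a copied sequence for 5 of these 6. Of their 75-base stretches, 97.8% to 99.9% occur exactly in transcripts annotated on chromosome 1, a nuclear copy of mitochondrial DNA, so their counts depend on how reads with several positions were treated, which is not given in the sources used here. The start of mt-Co3 and of its copy Gm28437 (GRCm38, chrM:8607-8666, plus strand, and chr1:24613912-24613971, minus strand) are shown to let the 2 be compared, and in all 783 aligned bases they do not differ:
mt-Co3: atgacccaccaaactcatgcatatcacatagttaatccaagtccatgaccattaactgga
Gm28437: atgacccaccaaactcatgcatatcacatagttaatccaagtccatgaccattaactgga
The start of mt-Nd3 (chrM:9459-9518, plus strand) and of its copy Gm28438 (chr1:24613060-24613119, minus strand) hold the 1 difference in 345 aligned bases, T3C, counted from the first base of the mitochondrial gene and in capitals:
mt-Nd3: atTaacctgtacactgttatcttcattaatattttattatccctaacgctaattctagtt
Gm28438: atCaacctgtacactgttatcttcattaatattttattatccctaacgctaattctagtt
The copy Gm28437 itself had 71.0 and 133 CPM in the tMCAO brain libraries, 122 and 104 CPM in those from tMCAO blood, and 83.8 and 71.0 CPM in those from sham blood, in the same order of libraries within each group as mt-Co3. Gm28438 had 19.2 and 7.60 CPM in the tMCAO brain libraries, 44.5 and 34.5 CPM in those from tMCAO blood, and 19.2 and 24 CPM in those from sham blood. Its brain libraries stood in the reverse order of those of mt-Nd3 (3.63 and 8.82 CPM). Gm10925, the copy of mt-Atp6, had 243 and 53.0 CPM in tMCAO blood, where mt-Atp6 had 60.9 and 56.4 CPM. The split of reads between a gene and its copy thus differed between libraries, so levels of the mitochondrially encoded genes cannot be ranked against each other, and differences between libraries are uncertain for the copied genes. The 6 genes with under 10% of their stretches copied (mt-Nd1, mt-Nd2, mt-Nd5, mt-Nd6, mt-Cytb and mt-Atp8) had medians of 0.11, 0.41 and 0.43 in the 3 comparisons. The mitochondrial ribosomal RNAs, which are no members, took 0.611% and 0.772% of the counts of the tMCAO brain libraries, 1.54% and 2.61% of those from tMCAO blood, and 1.38% and 0.919% of those from sham blood.

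**Figure D5:**
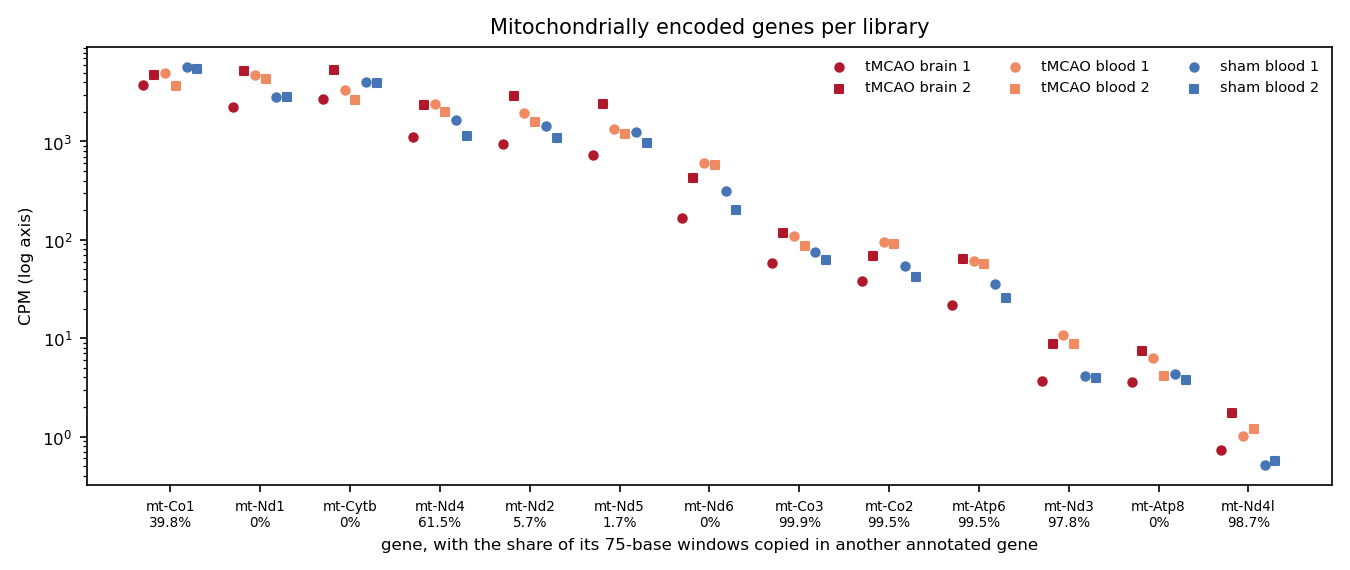
CPM (log axis) of the 13 mitochondrially encoded genes in each library, ordered by mean level, with the share of each gene's 75-base stretches that occur in another annotated gene under its name. Brain library 2 (squares) lies above brain library 1 (circles) for every gene, and 5 of the 6 genes with the lowest levels are copied over 97.8% to 99.9% of their length.

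Genes that build and supply the chain gave few calls. Of 15 complex I assembly genes none was called by edgeR in any comparison, with medians of -0.15, -0.36 and -0.41. Among 17 tested complex IV assembly genes 1 was called, Pet100, a small helper of complex IV assembly whose exons overlap Pcp2 over 52.6% of their bases, which rose in tMCAO blood against sham blood (153 and 106 CPM in tMCAO blood, 45.3 and 39.4 CPM in sham blood, log2 difference 1.61 ± 0.34, edgeR adjusted p = 0.0453). Among 13 genes of complex II, III and V assembly the 1 call was Uqcc2, needed for cytochrome b synthesis, in the same comparison (185 and 111 CPM in tMCAO blood, 54.6 and 45.5 CPM in sham blood, 1.56 ± 0.35, edgeR adjusted p = 0.0498). Of 21 tested genes for upkeep and transcription of mitochondrial DNA none was called, with medians of 0.19, -0.71 and -0.25, and of 17 citric acid cycle genes none was, with medians of 0.26, -0.52 and -0.04. In both of these lists 15 and 11 genes stood lower without overlap in tMCAO blood than in sham blood, against 30.4% of all genes. Of 10 genes for carriers, uncoupling and the ATPase inhibitor none was called. The call of Uqcc2 was lost in 5 of the 6 fits that left out 1 library, and that of Pet100 in 3.

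Regulators of mitochondrial gene expression gave calls in both directions. Gabpb1, a subunit of the GABP factor that binds many promoters of respiratory chain genes, rose in tMCAO brain against tMCAO blood and fell in tMCAO blood against sham blood. It had 35.5 and 55.9 CPM in the tMCAO brain libraries, 11 and 12.8 CPM in those from tMCAO blood, and 33.6 and 49.7 CPM in those from sham blood (log2 differences 1.95 ± 0.36 and -1.81 ± 0.36, edgeR adjusted p = 0.0403 and 0.0416). Yy1, a widely expressed factor that also binds such promoters, went the other way, with 42.4 and 44.2 CPM in the tMCAO brain libraries, 104 and 114 CPM in those from tMCAO blood, and 49.0 and 35.7 CPM in those from sham blood (-1.33 ± 0.27 and 1.36 ± 0.27, edgeR adjusted p = 0.0475 and 0.0411). Nfe2l2, the factor of the antioxidant response, rose in tMCAO brain against both blood groups, with 899 and 602 CPM in the tMCAO brain libraries, 182 and 106 CPM in those from tMCAO blood, and 100 and 127 CPM in those from sham blood (2.38 ± 0.41 and 2.72 ± 0.42, edgeR adjusted p = 0.0362 and 0.0179). Among electron carriers and other electron donors, Coq8a, which acts in ubiquinone synthesis, followed the order of Gabpb1 with 10 and 22.2 CPM in the tMCAO brain libraries, 2.69 and 2.14 CPM in those from tMCAO blood, and 13.4 and 18.8 CPM in those from sham blood (2.74 ± 0.53 and -2.73 ± 0.53, edgeR adjusted p = 0.0447 and 0.0402). Gpd2, which feeds electrons from glycerol 3-phosphate to ubiquinone, rose in tMCAO blood with 37.7 and 46.9 CPM, against 15.1 and 17.6 CPM in sham blood (1.37 ± 0.27, edgeR adjusted p = 0.0418). The calls of Yy1 and Gpd2 were lost in all 6 fits that left out 1 library. So were those of Gabpb1 and Nfe2l2 in tMCAO brain against tMCAO blood. The remaining calls of Gabpb1 and Coq8a were lost in 4 or 5 of the 6, and that of Nfe2l2 against sham blood in 2.

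Promoters were read for motifs of NRF1, GABP and YY1, and no motif of Nfe2l2 was searched. NRF1 is the product of Nrf1, a gene of the same list of regulators as Nfe2l2. Nrf1 was not called by edgeR in any comparison. RefSeq (GRCm38.p6) windows from 250 bases before to 50 after the start were found for 69 nuclear members (74 windows). The NRF1 core motif, searched on both strands like the others, occurred exactly in 6.76% of these windows and in 0.971% of all 32851 windows, and with at most 1 mismatch in 32.4% against 6.33%. The ETS family motif CCGGAAG that GABP can bind was in 23.0% against 8.86%, and the YY1 motif AAGATGGCG was in 9.46% against 1.4%. At least 1 of these was in 51.4% of the members' windows and 14.9% of all. A match is a description of the letters and not of binding. The windows of Atp5k and Uqcr10, both high in tMCAO blood, and of Uqcrc1, low there, are given with matches in capitals. Atp5k lies at chr5:108434350-108434649 (minus strand), Uqcr10 at chr11:4704295-4704594 (minus strand) and Uqcrc1 at chr9:108936398-108936697 (plus strand).
Atp5k: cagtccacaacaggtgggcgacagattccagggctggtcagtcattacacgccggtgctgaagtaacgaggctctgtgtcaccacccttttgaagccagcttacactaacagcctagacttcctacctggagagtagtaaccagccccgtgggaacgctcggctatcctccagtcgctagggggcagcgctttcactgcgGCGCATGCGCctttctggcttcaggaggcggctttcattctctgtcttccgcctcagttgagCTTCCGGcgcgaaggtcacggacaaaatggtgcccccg
Uqcr10: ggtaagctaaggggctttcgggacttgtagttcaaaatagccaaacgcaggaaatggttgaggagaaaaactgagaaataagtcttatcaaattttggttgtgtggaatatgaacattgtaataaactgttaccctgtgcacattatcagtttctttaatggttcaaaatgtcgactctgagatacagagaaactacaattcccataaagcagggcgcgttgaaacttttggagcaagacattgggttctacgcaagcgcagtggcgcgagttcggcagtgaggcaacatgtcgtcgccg
Uqcrc1: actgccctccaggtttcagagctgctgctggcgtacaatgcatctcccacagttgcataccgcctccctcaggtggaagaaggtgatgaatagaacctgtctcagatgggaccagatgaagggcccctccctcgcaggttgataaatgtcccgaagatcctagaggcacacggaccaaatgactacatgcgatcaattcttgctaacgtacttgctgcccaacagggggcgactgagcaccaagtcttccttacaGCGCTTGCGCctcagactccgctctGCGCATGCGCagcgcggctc
The Atp5k window held 1 exact NRF1 motif and 1 ETS motif, the Uqcrc1 window held 2 NRF1 matches, of which 1 had a mismatch, and the Uqcr10 window held none of the motifs searched.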

How the data were processed

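Messenger RNA was measured by bulk RNA-seq in 6 libraries that the labels give as sorted Tregs. Per the labels' protocols, a SMART-Seq ultralow input kit gave the cDNA and Nextera XT the libraries, without molecular identifiers. The authors deposited raw read counts, 1 whole number for each gene and library. The submitters' processing notes name STAR, with no version, along with HTSeq 0.11.2 and the build GRCm38. Annotation release, strand setting and treatment of reads with several positions are not given in the sources used here, so genes that overlap another gene (32 members overlap a protein-coding one) or have near-identical copies are uncertain. Totals ran from 14348179 to 24460894 counts.

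After filterByExpr (minimum count 10), which kept 16657 genes, and TMM scaling, differences were tested in R 4.3.3 by the edgeR 4.0.16 quasi-likelihood method, with all 6 libraries in 1 fit (3 residual degrees of freedom, no covariates) and Benjamini-Hochberg adjustment over all genes within each comparison (threshold 0.05). The steps were tested on simulated data. Standard errors are the log2 difference divided by the square root of F. CPM use TMM-adjusted library sizes, and shares use raw totals. DESeq2 1.42.0, limma-voom 3.58.1, other filters and scalings, a replicate block and fits without single libraries were alternatives. GENCODE M21 (GRCm38) gave positions and coding lengths for 98 of the 99 members, 3 by synonym, Atp5o being unmatched. Copied sequence is the share of 75-base stretches found exactly in transcripts of another annotated gene. Promoters are from RefSeq (GRCm38.p6), searched in Python 3.11.15.

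Named are all mitochondrially encoded members, up to 10 called nuclear members per direction, the 2 nuclear members per complex with the highest mean CPM per kilobase, members with tissue forms or gene copies, and up to 3 called genes per pathway list. Ndufs1, Ndufv1, Ndufv3, Uqcrc1, Uqcrc2, Cyc1, Uqcrfs1, Atp5b, Cox6c2 and Cox8c were chosen after their values were seen. Members and lists were chosen with earlier results of these data known. The labels give libraries a number within each group, and same-numbered libraries were not shown to be paired.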

Additional observations from a re-analysis of the deposited data

How the results depend on the processing

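The negative nuclear median in tMCAO brain against tMCAO blood and the positive one in tMCAO blood against sham blood kept their direction in every fit run, whereas the number of calls did not, and with 2 libraries per group this limits every call. The cause of these changes was not tested. In tMCAO brain against tMCAO blood, 816 genes and 7 nuclear members were called. There were 3598 and 36 with no filter on low counts, 1237 and 31 with a stricter one, 3469 and 50 by DESeq2, 1446 and 31 by limma-voom, 26 and 0 with only the 2 groups compared, and 14 nuclear members without red cell genes. In tMCAO blood against sham blood, 1246 genes and 8 nuclear members were called. There were 3611 and 23 with no filter, where 1 mitochondrially encoded gene was also called, 3789 and 44 by DESeq2, and 21, 14 and 13 nuclear members with the stricter filter, by limma-voom and without red cell genes. In tMCAO brain against sham blood, 1772 genes and 0 nuclear members were called. There were 4458 and 2 with no filter, 4007 and 5 by DESeq2, 2752 genes with only the 2 groups, and 1 nuclear member each with the stricter filter and by limma-voom. Without 1 library, calls over all genes ran from 31 to 313, 0 to 1240 and 0 to 2080 in the 3 comparisons, and nuclear calls from 0 to 0, 0 to 13 and 0 to 0. Without library 1 of both tMCAO groups, chosen after seeing the data, the 3 comparisons gave 3609, 3850 and 4979 genes, 46, 40 and 4 nuclear members and 1, 3 and 5 mitochondrially encoded ones. Mt-Cytb in tMCAO brain against tMCAO blood (log2 difference 0.43) changed sign to -0.13 without tMCAO brain library 2 and was 0.83 without library 1.

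To look for pairing, the log2 CPM of each gene were taken as deviations from the mean of their group. Over genes, the deviations in same-numbered libraries correlated at 0.304 between tMCAO brain and tMCAO blood. The values were -0.0285 between tMCAO brain and sham blood, and -0.0702 between tMCAO blood and sham blood. These are not correlations of whole libraries. With the replicate block 4, 4 and 1 nuclear members were called.

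The log2 ratio of mitochondrially encoded to nuclear counts was -0.57 in tMCAO blood and 0.01 in sham blood, as group means. It was -0.42 and 0.25 per exon length, -0.38 and 0.26 without genes that overlap another, 0.19 and 0.27 from the mean of log2 counts, and 0.48 and 0.76 with the mitochondrial ribosomal RNAs added. With only the genes under 10% copied, chosen after seeing the data, it was -1.25 and -0.80. Without 1 library it ran from -0.34 to 0.77 in tMCAO brain, -0.63 to -0.51 in tMCAO blood and -0.05 to 0.07 in sham blood.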
